A study of Mus musculus with 2 samples.

Results

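The forebrain patterning factor genes are 9 genes for transcription factors that lay out and maintain the embryonic and postnatal forebrain: Pax6, Emx1, Emx2, Lhx2, Otx1, Dlx1, Dlx2, Nr2e1 and Meis2. They were chosen by symbol from the GENCODE M1 annotation of the mouse genome build mm9, which holds 37273 genes on the chromosomes used, 22367 of them protein-coding, and all 9 symbols were found. An R-loop peak was assigned to a gene when it overlapped the gene by at least 1 bp or lay within 10 kb of it, and 21 of the 22132 peaks in the list met this rule. No filter on expression or peak size was applied, so the 9 genes are described whether or not they carried a peak.

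The study mapped R-loops in neural stem/progenitor cells (NSPCs) cultured from the frontal brain of C57BL/6 mice at postnatal day 7. By the methods of the study, the cells were kept under mild replication stress with aphidicolin, an inhibitor of replicative DNA polymerases, at 0.5 µM for 48 h, although the sample labels name no treatment. In DRIP-seq, DNA is cut with restriction enzymes, fragments with RNA-DNA hybrids are captured by the S9.6 antibody and sequenced. The experiment was done on 3 biological replicates, with 3 such reactions pooled in each, and the list analysed here is a single one for all of them, with no column per replicate. The labels give 1 DRIP sample, with this list of peak positions, and 1 input sample without antibody, which was not analysed here. Depth, signal and replicate error are unknown from a list of positions, and no condition could be compared with another. The list holds no expression, so the identity of the cells could not be checked against marker genes.

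An R-loop forms when RNA pairs with the DNA strand it was copied from and leaves the other strand single; it is favoured where the non-template strand is rich in G. Patterning factors divide the early forebrain into territories: Pax6, Emx1, Emx2 and Lhx2 act in the dorsal telencephalon, from which the cortex arises, and Dlx1 and Dlx2 act in the ventral telencephalon, from which GABAergic interneurons arise. Several of them continue to be used in postnatal neural stem cells and in the neurons that these cells add to the olfactory bulb.

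The sequences before the starts of 5 of the genes are shown to compare base composition under and outside the peaks. The bases shown are the 150 upstream of the start of transcript 001, the first-numbered transcript of each gene, read 5′ to 3′ on the coding strand from the mm9 genome, with runs of 3 or more G or of 3 or more C in capitals. In the first 3, Nr2e1, Meis2 and Lhx2, the start lay in a peak, and in the last 2, Pax6 and Dlx1, no peak lay within 10 kb.
Nr2e1, chr10:42303439-42303588, minus strand: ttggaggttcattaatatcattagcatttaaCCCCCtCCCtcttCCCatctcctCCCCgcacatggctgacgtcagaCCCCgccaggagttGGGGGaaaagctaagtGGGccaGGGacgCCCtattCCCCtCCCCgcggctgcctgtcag
Meis2, chr2:115891576-115891725, minus strand: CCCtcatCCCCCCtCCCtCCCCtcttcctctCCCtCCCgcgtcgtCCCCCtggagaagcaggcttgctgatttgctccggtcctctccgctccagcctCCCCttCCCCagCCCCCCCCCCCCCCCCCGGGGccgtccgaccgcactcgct
Lhx2, chr2:38206678-38206827, plus strand: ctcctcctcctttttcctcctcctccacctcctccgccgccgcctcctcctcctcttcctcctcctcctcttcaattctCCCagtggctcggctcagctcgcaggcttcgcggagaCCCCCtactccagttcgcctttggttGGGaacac
Pax6, chr2:105508903-105509052, plus strand: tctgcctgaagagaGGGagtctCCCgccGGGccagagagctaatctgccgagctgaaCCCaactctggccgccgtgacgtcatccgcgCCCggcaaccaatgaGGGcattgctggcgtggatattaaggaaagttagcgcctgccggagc
Dlx1, chr2:71366020-71366169, plus strand: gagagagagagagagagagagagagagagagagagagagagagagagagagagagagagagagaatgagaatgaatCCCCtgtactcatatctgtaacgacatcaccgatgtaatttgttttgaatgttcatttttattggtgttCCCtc

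The Meis2 window held 10 runs of CCC or longer, the longest of 17 bases, against 1 run of GGG or longer. The Lhx2 window was built of repeated CCT units and had a GC skew of -0.511, where GC skew is the excess of G over C divided by their sum and is positive where the coding strand is G-rich. The windows of Nr2e1, at -0.205, and Meis2, at -0.545, were also C-rich on the coding strand. So were windows outside a peak, those of Emx2 at -0.239 and Dlx2 at -0.0784, the latter with 9 runs of CCC or longer. The Otx1 window, not shown above and with 147 bp in a peak, was not C-rich. Its skew was 0.00971, with 6 runs of GGG or longer and 6 runs of CCC or longer. The skews of windows under peaks and outside them overlapped. Dlx1, with no peak, had the highest skew of the 9 windows at 0.460, from a run of GA repeats without a single GGG. Among 13982 protein-coding genes with a transcript 001, 54.2% of such windows held the motif GGGG and 54.0% held CCCC on the coding strand, so that these motifs, which are each other's reverse complement, were present in most windows.

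Of the 9 genes, 5 carried at least 1 peak inside their limits, namely Emx2, Lhx2, Otx1, Nr2e1 and Meis2, against 39.6% of all protein-coding genes. Emx1 had a peak in its downstream flank, which made 6 of 9 genes with a peak inside or within 10 kb, against 51.3% of all protein-coding genes. Pax6, Dlx1 and Dlx2 had no peak in either, and widening the flank to 50 kb still left 6 genes with a peak. Because the peaks are from a cell population, a locus without R-loops and a locus with R-loops in few cells cannot be told apart. With 9 genes, these counts describe the group and no test was made of them.

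**Figure D1:**
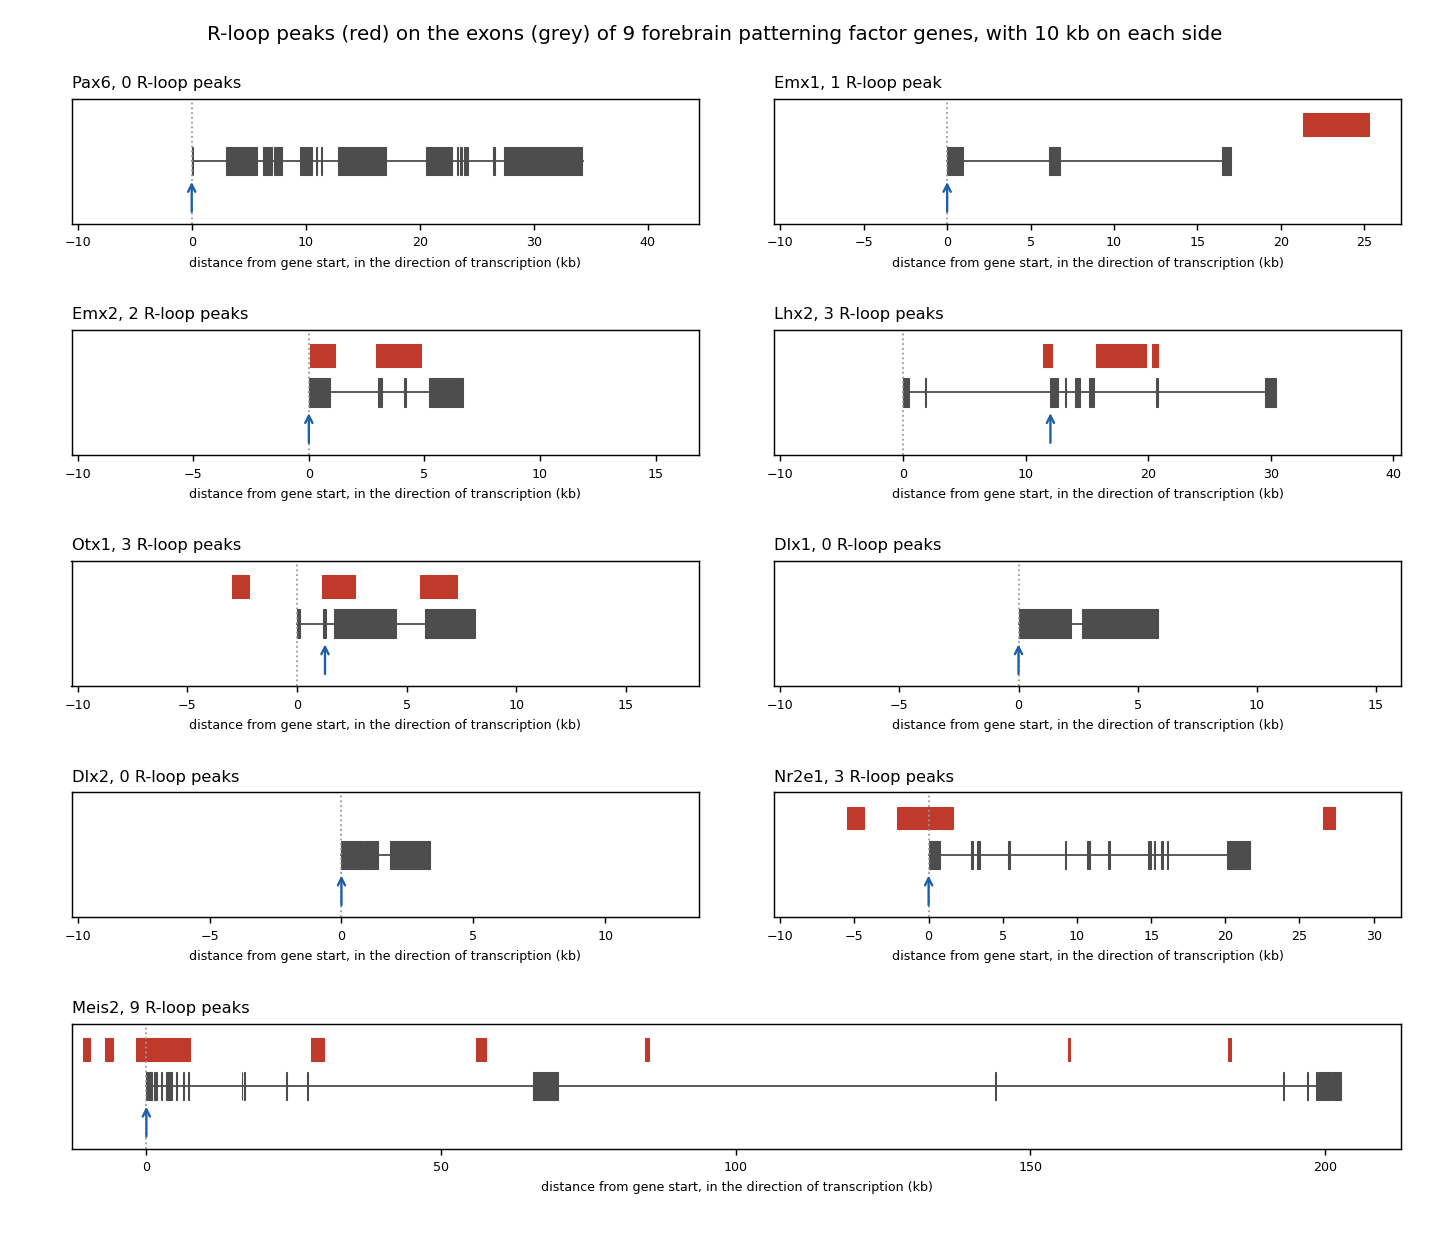
Gene models of the 9 genes drawn to scale, with distance from the outermost gene start in kb on each horizontal axis, exons of all transcripts in grey, R-loop peaks in red and the start of transcript 001 as a blue arrow. Peaks lay over the start of Nr2e1 and Meis2, over the transcript 001 starts of Lhx2 and Otx1, just after the start of Emx2 and past the end of Emx1, and none lay in the windows of Pax6, Dlx1 and Dlx2.

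The maps of the 9 genes show that the peaks differed in place as much as in number. Genes of different length are not alike in the chance of holding a peak: 22.2% of protein-coding genes under 10 kb, 46.2% of those of 10 to 50 kb and 63.8% of those of 100 kb or more did. Among the 4 patterning factor genes under 10 kb, Emx2 and Otx1 held peaks and Dlx1 and Dlx2 did not. Among the 4 of 10 to 50 kb, Lhx2 and Nr2e1 held peaks and Pax6 and Emx1 did not, and the only gene over 100 kb, Meis2, held 6.

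Emx1 and Emx2 encode homeodomain factors related to the fly gene empty spiracles, and Emx2 sets the caudal and medial territories of the cortex. Emx2, on chromosome 19 from 59533180 to 59539847 on the plus strand (ENSMUSG00000043969), is 6.67 kb long and held 2 peaks that covered 45.1% of it, more than in 92.9% of protein-coding genes. The first, from 59533245 to 59534293, began 65 bp after the annotated start and was 1.05 kb wide. It took in 870 of the 935 bp of exon 1 of the 3 exons of Emx2-001, contained 409 bp of coding sequence, and held the start of transcript Emx2-002. The start of Emx2-001 itself lay outside the peak.

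This first Emx2 peak was both GC-rich and C-rich on the coding strand. Its GC content of 65.0% was higher than that of 98.2% of all peaks, its GC skew was -0.255, and it held 17 runs of 4 or more C against 2 runs of 4 or more G. Over the first 1 kb of Emx2-001 there were 409 C and 225 G, a skew of -0.290, and only 0.236% of the 13982 genes had a lower one. The second peak, from 59536077 to 59538032, was 1.96 kb wide, covered all 185 bp of exon 2 with intron on both sides, and had a skew of 0.03. The antisense noncoding gene Emx2os starts on the other strand with 54 bp between the starts, and neither start lay in a peak.

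Emx1, on chromosome 6 from 85137432 to 85154456 on the plus strand (ENSMUSG00000033726), had no peak in its 17.0 kb. Its single peak lay in the flank, from 85158739 to 85162717, was 3.98 kb wide, and began 4283 bp past the end of the gene. On the far side lies Sfxn5, which encodes a mitochondrial carrier of the sideroflexin family. Sfxn5 runs on the minus strand and ends at 85163045, so the peak lay between the ends of converging genes, nearer to Sfxn5. The peak had a GC content of 50.0% and a skew of -0.117 on the strand of Emx1. The paralogs therefore differed, with 2 peaks inside Emx2 and none inside Emx1, although the first 1 kb of Emx1-001 had the higher GC content, 70.2% against 63.4%.

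Lhx2 encodes a LIM homeodomain factor that selects cortical over neighbouring identity in the dorsal telencephalon. The gene, on chromosome 2 from 38194801 to 38225253 on the plus strand (ENSMUSG00000000247), is 30.5 kb long and held 3 peaks that covered 17.4% of it. The outermost start lay in no peak, but the peak from 38206209 to 38206929, 0.721 kb wide, lay over the start of Lhx2-001 at 38206828. Only 102 of the 586 bp of exon 1 were inside, so most of this peak lay before that start, with a GC content of 64.9% and a skew of -0.175.

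The widest Lhx2 peak, of 4.06 kb from 38210584 to 38214642, lay wholly in intron, with 137 CpG dinucleotides and a skew of 0.05. The third, of 0.504 kb from 38215095 to 38215598, overlapped 181 of the 206 bp of exon 4 of 5 and the antisense transcript Gm13584. The peaks of Lhx2 thus lay over a promoter, an intron and an internal exon, and none reached the last exon.

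Otx1 encodes a homeodomain factor related to the fly gene orthodenticle and acts in cortical growth and in deep-layer cortical neurons. The gene, on chromosome 11 from 21894767 to 21902900 on the minus strand (ENSMUSG00000005917), is 8.13 kb long, with 39.4% of it in 2 peaks. The peak from 21900262 to 21901765, 1504 bp wide, held the starts of 3 of its 4 transcripts and exons 1 and 2 of Otx1-001. The peak from 21895579 to 21897279, 1.70 kb wide, covered 1483 of the 2295 bp of the last exon and held 816 bp of coding sequence. Both were rich in GC, at 61.4% and 60.6%. Another peak, of 0.770 kb and 43.1% GC, lay before the gene, from -2.97 to -2.20 kb of its start, and overlapped the end of Ehbp1.

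Nr2e1, also called Tlx, encodes an orphan nuclear receptor that keeps neural stem cells of the postnatal forebrain in a self-renewing state. The gene, on chromosome 10 from 42281769 to 42303438 on the minus strand (ENSMUSG00000019803), is 21.7 kb long. Its start lay in a peak of 3.83 kb, from 42301762 to 42305586, that ran from 2148 bp before to 1676 bp after the start and covered all 751 bp of exon 1 of 9. The same peak held the start of Ostm1, a gene for a lysosomal membrane protein that runs the other way, and all 189 bp between these starts. It contained 217 CpG dinucleotides and had a GC content of 57.8%, higher than in 92.2% of peaks.

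Neither start of the divergent pair of Emx2 and Emx2os lay in a peak, although a peak began 65 bp after the Emx2 start. Both starts of the Nr2e1 and Ostm1 pair lay in a peak. To which of these genes the hybrids belong cannot be told apart, since the list gives no strand. The flanks of Nr2e1 held another 2 peaks. One, of 1.14 kb, lay inside Ostm1, and the other, of 0.789 kb and 26.6 to 27.4 kb from the Nr2e1 start, lay past the end of the gene. The latter had the lowest GC content of the 21 peaks, 42.0%, and a skew of 0.52 from a stretch of GT repeats. Its start peak alone gave Nr2e1 a covered share of 7.74%.

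Meis2 encodes a TALE homeodomain factor, a partner of Hox proteins that also takes part in making olfactory bulb neurons. The gene, on chromosome 2 from 115688800 to 115891575 on the minus strand (ENSMUSG00000027210), is 202.8 kb long, and 6 peaks inside it and 3 upstream gave it the most peaks of the 9 genes. In all, 98.1% of protein-coding genes, taken over all lengths, had fewer peaks inside. Measured as a share of its length, the cover was 6.30%, below that of Emx2, Otx1, Lhx2 and Nr2e1, but above that of 76.0% of protein-coding genes.

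Over the start of Meis2 lay the widest of the 21 peaks, 9.23 kb from 115884162 to 115893390, and 97.6% of all peaks were narrower. It reached from 1815 bp before to 7413 bp after the start and held exons 1 to 6 of the 13 exons of Meis2-001. It held the starts of 11 of the 18 annotated Meis2 transcripts, the whole of the short noncoding gene 2700033N17Rik, and the start of the divergent noncoding gene G630016G05Rik. Its GC content was 52.7%, and 348 CpG dinucleotides lay in it. The skew was -0.08 over the whole peak and -0.02 over its part in Meis2.

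Upstream of this peak, the other 3 flanking peaks of Meis2, of 0.285, 0.838 and 1.36 kb, all lay inside G630016G05Rik. The 0.285 and 0.838 kb peaks were separated by 1 bp. The remaining 5 peaks of Meis2 lay in introns, at 27.9, 56.0, 84.6, 156.5 and 183.6 kb from the start, and were 2.24, 1.62, 0.754, 0.354 and 0.393 kb wide. These peaks were narrower the farther they lay from the start, apart from the last, which was a little wider than the one before it. The peak at 84.6 kb had the strongest skew of all 21, 0.68, within a repeat of GT units, and held 1 CpG.

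Pax6 encodes a paired-box homeodomain factor of cortical radial glia and of the olfactory bulb neurons born after birth. The gene, on chromosome 2 from 105509053 to 105543317 on the plus strand (ENSMUSG00000027168), is 34.3 kb long with 33 annotated transcripts, and none of their starts lay in a peak. The nearest peak lay 65829 bp past the gene, inside Elp4, a gene for a subunit of the Elongator complex, and was 0.468 kb wide. It was the only peak within the 500 kb centred on the Pax6 start, 2 per Mb against 8.70 per Mb on chromosome 2 as a whole. The surroundings of Pax6 were thus sparser in peaks than its chromosome. That was also so of Otx1, a gene with peaks, at 8 per Mb against 14.4 per Mb on chromosome 11.

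Dlx1 and Dlx2 are homeodomain genes related to the fly gene Distal-less. They lie next to each other in opposite directions on chromosome 2, from 71366170 to 71372038 (ENSMUSG00000041911) and from 71381466 to 71384811 (ENSMUSG00000023391). Both share the nearest peak, 1.27 kb wide in Metap1d, which lay 58064 bp from Dlx1 and 73360 bp from Dlx2. Unlike Pax6, their surroundings were not poor in peaks, with 6 in the 500 kb around each start, 12 per Mb. The 500 kb around the starts of Emx1 and Lhx2 held 13 peaks each, those of Emx2 10, Meis2 9, Nr2e1 7 and Otx1 4. These counts include the peaks assigned to each gene itself. Those were 1 for Emx1, 2 for Emx2, 3 each for Lhx2, Nr2e1 and Otx1, and all 9 for Meis2.

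**Figure D2:**
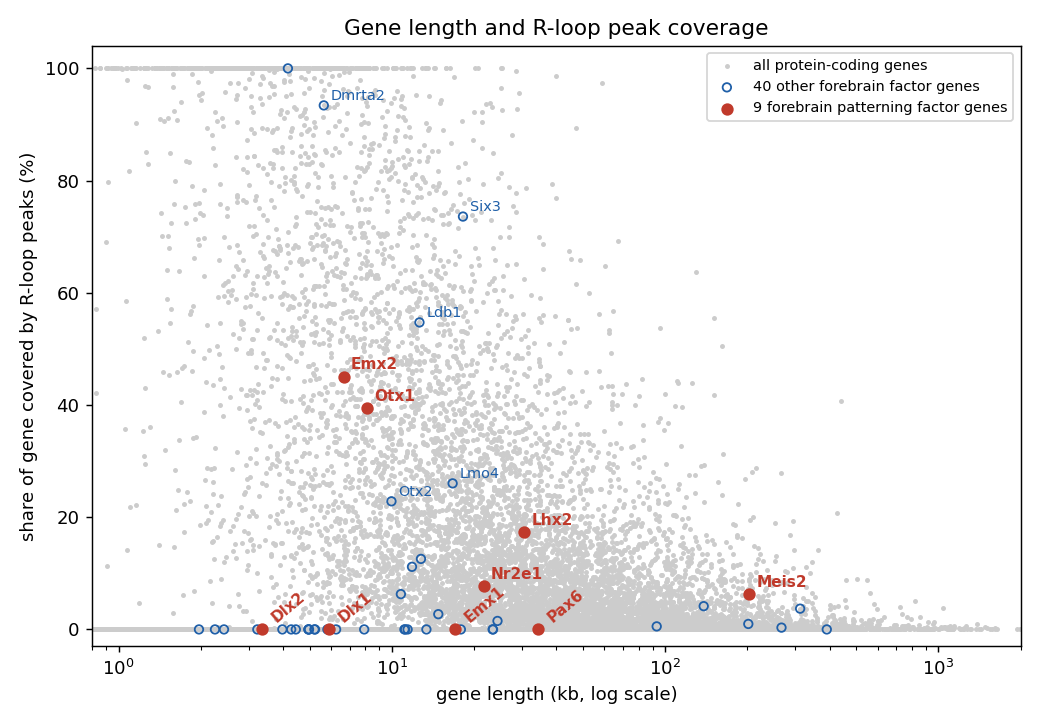
Share of each gene covered by R-loop peaks in percent against gene length in kb on a log scale, with 1 point per gene: all 22367 protein-coding genes in grey, 40 other forebrain factor genes as blue rings and the 9 patterning factor genes in red. Emx2 at 45.1% and Otx1 at 39.4% are the most covered of the 9, Meis2 is the longest, and Pax6, Emx1, Dlx1 and Dlx2 lie at 0.

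The plot of covered share against length places the short genes Emx2 and Otx1 highest among the 9. Pooling the 9 genes with 10 kb on each side, 7.68% of the 499.6 kb so defined was in peaks. For all protein-coding genes the share was taken window by window, with a mean of 7.06% and a median of 0.251%. The pooled share and these values are thus not the same measure. The window shares of the 6 genes with a peak ranged from 7.36% for Meis2 to 14.1% for Otx1. Of the 39.1 kb of peak sequence at the 9 genes, 46.2% was intron of the gene, 14.5% exon outside the coding sequence, 5.80% coding sequence, 21.4% upstream and 12.2% downstream.

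The start in a peak depended on which start was taken. The outermost start lay in a peak at 2 of the 9 genes, Nr2e1 and Meis2, against 14.9% of all protein-coding genes. The start of transcript 001 lay in a peak at 4, with Lhx2 and Otx1 added, against 16.1% of the 13982 genes that have one. Of the 77 annotated transcripts of the 9 genes, 18 began in a peak, against 17.9% of all transcripts of protein-coding genes. These were 11 at Meis2, 3 at Otx1, 2 at Emx2 and 1 each at Lhx2 and Nr2e1. The starts of Meis2 lay within a single peak and are not independent of each other, and the 33 transcripts of Pax6 weighed on the total.

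**Figure D3:**
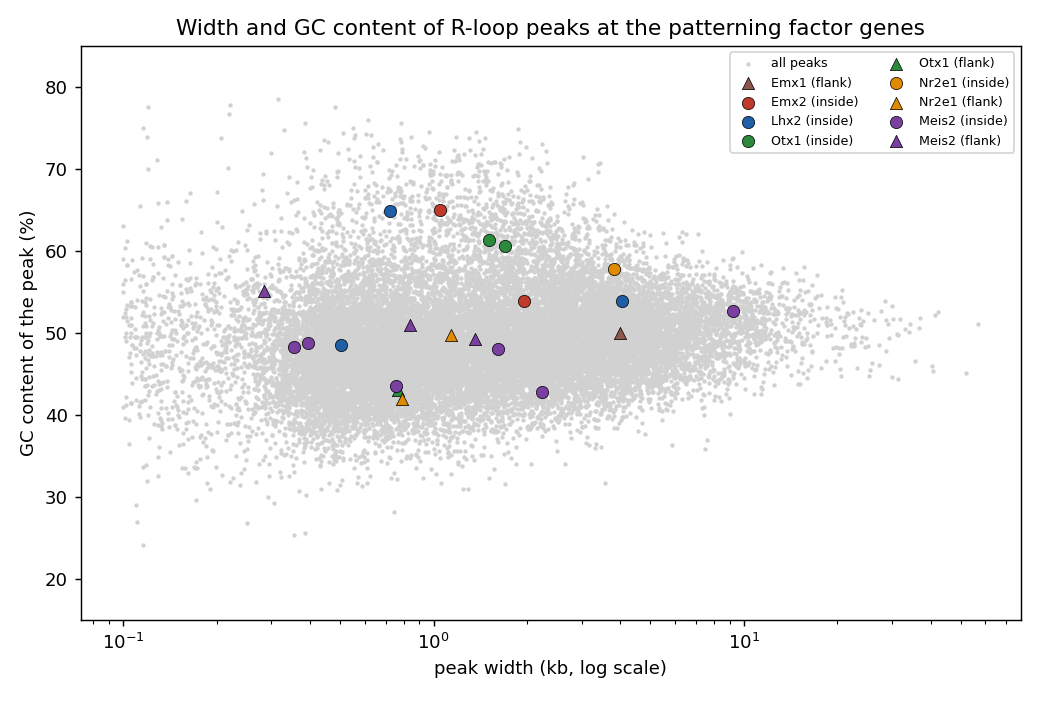
GC content in percent against width in kb (log scale) for the 22132 R-loop peaks (grey) and the 21 peaks at the patterning factor genes, coloured by gene, with circles for peaks inside a gene and triangles for peaks in the flanks. The coloured peaks run from 0.285 to 9.23 kb and from 42.0% to 65.0% GC, and the most GC-rich are those at the starts of Emx2 and Lhx2 and both inside Otx1.

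The plot of width against GC content shows that the 21 peaks were spread through the range of all peaks. Their median width was 1.14 kb, against 1.32 kb over all peaks. Of the 21, 12 were at least 1 kb wide, and 42.9% of all peaks were narrower than the narrowest of these 12, at 1.05 kb. Their median GC content was 50.0%, against 48.7%. The 4 peaks with the highest GC content were the first of Emx2, that over the Lhx2-001 start and both inside Otx1, and all overlapped an exon. Peaks in the long introns of Meis2 had between 42.8% and 48.9%.

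GC skew did not follow a single direction. Over the part inside the gene, 6 of the 14 peaks with such a part had more G than C on its coding strand. Of all peaks that overlapped protein-coding genes of 1 strand, 66.2% did, but over the whole peak, so the measures are not the same. The start peak of Nr2e1, which also overlaps Ostm1 on the other strand, is not among the peaks of that share. With the flank peaks added and read on the strand of the patterning factor gene, 10 of the 21 had more G than C. Flank peaks inside Ostm1 and G630016G05Rik lay in genes of the other strand, so for them this was not the coding strand. The median skew of the 21, flank peaks included, was -0.01, against 0.04 over the peaks in protein-coding genes of 1 strand. Runs of 4 or more G outnumbered runs of 4 or more C in 9 of the 21 peaks and were fewer in 8. These run counts share the strand limit of the flank peaks, and no share over all peaks was taken for comparison. Skew was most positive in the GT repeats of Meis2 and Nr2e1 and most negative in the first peak of Emx2.

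**Figure D4:**
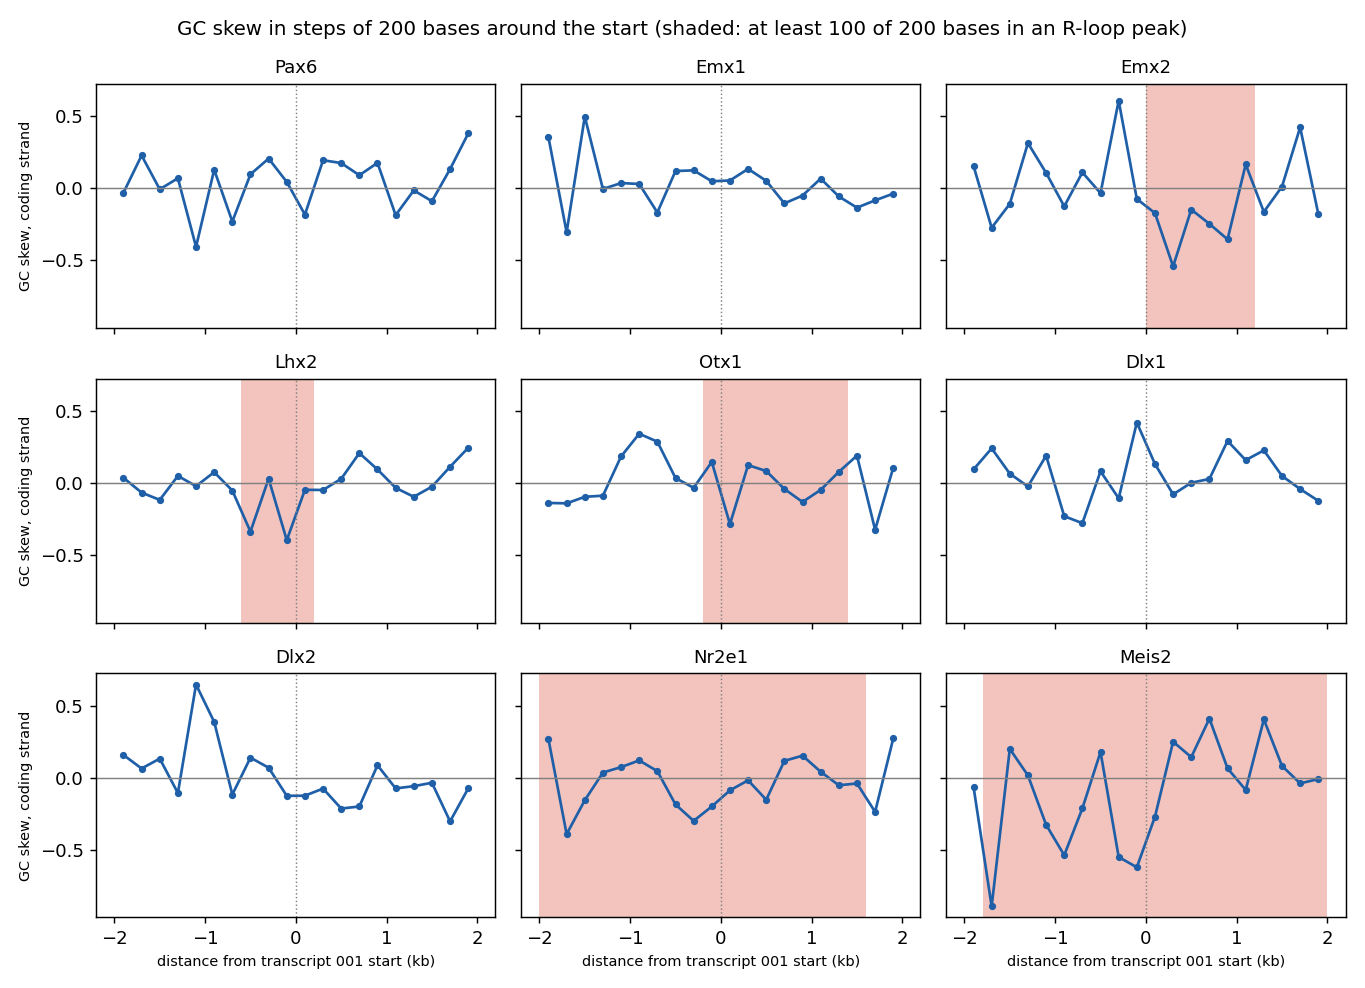
GC skew on the coding strand in steps of 200 bases, from 2 kb before to 2 kb after the start of transcript 001, for each of the 9 genes, with steps that had at least 100 of 200 bases in an R-loop peak shaded. Skew is below 0 at the start of Meis2 and across the shaded first 1 kb of Emx2, and the unshaded panels of Pax6, Emx1, Dlx1 and Dlx2 cross 0 several times.

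The profiles of skew around the 9 starts differed among the genes with a peak there. In the first 200 bases after the start, skew was below 0 in Emx2, Lhx2, Otx1, Nr2e1 and Meis2, from -0.287 to -0.049. It was also below 0 in Pax6, at -0.186, and Dlx2, at -0.125, which had no peak, and above 0 in Emx1 and Dlx1. Over the first 1 kb after the start of transcript 001, the skew was 0.09 in Meis2, 0.04 in Lhx2, 0.01 in Nr2e1, -0.04 in Otx1 and -0.29 in Emx2. In the genes without a peak there it was 0.09 in Pax6, 0.09 in Dlx1, 0.02 in Emx1 and -0.11 in Dlx2, so the ranges overlapped. The median over 13982 genes was 0.04. Within 2 kb of the start, GC content lay between 52.1% in Dlx2 and 58.1% in Emx1, both without a peak at the start.

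Whether or not G outnumbered C over the whole peak, each of the following held a stretch that was G-rich on the coding strand. The 60 bases of the coding strand in which G most outnumbered C, outside untranslated exons, are shown for a peak of each of the 5 genes and for the intronic repeat of Meis2, with runs of 3 or more G in capitals. They come from the second peak of Emx2, the intronic peak of Lhx2, the last-exon peak of Otx1, the start peaks of Nr2e1 and Meis2, and the Meis2 peak at 84.6 kb.
Emx2, chr19:59536805-59536864, plus strand: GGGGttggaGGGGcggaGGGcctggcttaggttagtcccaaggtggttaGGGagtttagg
Lhx2, chr2:38212337-38212396, plus strand: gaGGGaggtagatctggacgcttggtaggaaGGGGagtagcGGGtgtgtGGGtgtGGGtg
Otx1, chr11:21897162-21897221, minus strand: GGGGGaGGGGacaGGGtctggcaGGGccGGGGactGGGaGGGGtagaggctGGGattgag
Nr2e1, chr10:42304516-42304575, minus strand: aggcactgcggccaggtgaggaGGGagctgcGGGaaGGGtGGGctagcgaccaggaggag
Meis2, chr2:115888801-115888860, minus strand: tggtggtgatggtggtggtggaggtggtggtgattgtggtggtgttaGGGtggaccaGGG
Meis2, chr2:115806618-115806677, minus strand: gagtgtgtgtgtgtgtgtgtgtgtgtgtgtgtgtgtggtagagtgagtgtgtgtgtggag

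The Otx1 stretch, in intron, had 36 G and 7 C, and the start peak of Meis2 had a stretch of 34 G and 2 C made of GGT units in an intron. The Lhx2 stretch had 33 G and 4 C, that of Nr2e1, which lay before its start, 31 and 11, and that of Emx2 30 and 7. The stretch at 84.6 kb in Meis2 had 31 G and no C, yet no run of GGG. These stretches were chosen for their G excess and do not show that hybrids formed there.

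The DNA was cut with 5 restriction enzymes before capture, and the peak edges were therefore compared with their sites. Of the 42 edges of the 21 peaks, 10 lay within 100 bp of a site of EcoRI, HindIII, BsrGI, SspI or XbaI, against 28.3% of the edges of all peaks. Most edges thus lay farther than 100 bp from a site. At a limit of 20 bp, for which no share over all edges was taken, 2 edges were near a site. Both are shown on the plus strand, with the site in capitals: BsrGI at the Otx1 last-exon peak and SspI at the Meis2 peak at 84.6 kb.
Otx1, chr11:21895569-21895588, plus strand: ctgactaTGTACAgcattcc
Meis2, chr2:115806234-115806253, plus strand: ctacataaAATATTttaatg

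The fragment around the start of transcript 001 was shortest for Pax6, 0.681 kb, and longest for Nr2e1, 3.91 kb. Among the other genes without a peak there it was 1.60 kb for Dlx1, 1.92 kb for Emx1 and 2.95 kb for Dlx2, and the other genes with one ranged from 1.11 kb for Meis2 to 2.43 kb for Lhx2. The part of fragment length in which genes had a peak was not tested.

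A list of 40 other forebrain factor genes, among them paralogs and partners, gave 16 with a peak inside their limits, close to the 39.6% of all protein-coding genes. Dmrta2 was covered to 93.4% by 2 peaks and Six3, a factor of the anterior forebrain, to 73.6% by 3. Ldb1 and Lmo4, for cofactors that bind LIM domain proteins, also carried peaks, 3 and 4.

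Paralogs of the patterning factors were not alike in having a peak. Otx2 held 1 peak over 22.8% of its length, as Otx1 held 2. Meis1 held 3 peaks and Meis3 none, against 6 in Meis2. Of the relatives of Lhx2, Lhx8 held 1 peak and Lhx6 and Lhx9 none. Of those of Nr2e1, Nr2f1 and Nr2f2 held 1 each, with the start of Nr2f1 in its peak, and Nr2e3 held none. Dlx3, Dlx4, Dlx5 and Dlx6 had none within 10 kb, as was so of Dlx1 and Dlx2, and their nearest peaks lay 41767 to 79657 bp away.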

How the data were processed

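R-loop peaks were from DRIP-seq of primary NSPCs. Per the study's methods, the authors trimmed adapters (Trim Galore 0.6.6 in the submitters' processing notes), aligned reads to mm9, removed duplicates, called peaks with a hidden Markov model and deposited 1 list of peak positions in base pairs, with no count, signal, strand or score. The aligner and the way in which replicates gave 1 list are not given in the sources used here. The input sample was not used here.

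Samples were grouped by the antibody in the labels. Peaks were placed on GENCODE M1 genes and the mm9 genome on chromosomes 1 to 19, X and Y, counting overlaps from 1 bp and flanks of 10 kb. GC content, GC skew, motif runs and restriction sites were read from the genome with pysam 0.24.0 and numpy 2.4.6 in Python 3.11.15. Figures were drawn with matplotlib 3.10.9. Scripts were tested on simulated data. No p-values were computed, because 1 list has no replicates.

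All 9 genes were named, with genes overlapping or nearest to their peaks. Of the 40 other forebrain genes, those with the most peaks or cover and the paralogs were named, except for some results that are not reported here; Dlx3 and Dlx4 were added to complete the family. The genes and lists were chosen with earlier results of these data known. Alternatives were peak size, merging of close peaks, overlap rule, flank and choice of start.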

Additional observations from a re-analysis of the deposited data

How the results depend on the processing

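Depth is unknown and 1 list was available, so the error of each position cannot be given. Of 41 alternative values, 33 stayed within 1.5 times the reported count or share, or within 1 SD for GC content. Genes with a peak inside numbered 4 in place of 5 when the midpoint or most of a peak had to lie inside, since the start peak of Nr2e1 lies mostly before it. With peaks of at least 1 kb alone, the 21 peaks became 12, and those with more G than C went from 10 to 5. Over the part of each peak inside its gene, 6 had more G than C. Genes whose start lay in a peak went from 2 to 5 for any annotated transcript and to 4 for transcript 001, the latter chosen after seeing the data. No share over all genes was taken for any annotated transcript, and genes with more transcripts have more starts to count. With protein-coding transcripts alone, 11 of 54 starts lay in a peak in place of 18 of 77. With flanks of 50 kb, the covered share fell from 7.68% to 4.23%. Edges near a restriction site went from 10 to 2 when the limit was 20 bp. These changes follow from counting fewer or more peaks, starts or bases. No paired analysis was possible because there is 1 peak list.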
